A study of Mus musculus with 8 samples.

Results

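The S100 genes known from epithelial or stromal cells were described in mouse colon. They number 9: S100a14, S100a16, S100a1, S100a4, S100a6, S100a10, S100a11, S100a13 and S100g. They were found by matching the Ensembl identifiers of the deposited count table to these symbols, and all 9 are among its 52636 genes. They were chosen by symbol with earlier results of these counts known, so their p-values are descriptions; no threshold on a level or fold change defines the set. The tissue was whole colon of wild-type C57BL/6 female mice, germ-free in origin, 6 weeks old and kept in gnotobiotic isolators. The groups were colon colonized by oral gavage with Candida tropicalis MYA-3404 (2 libraries), colon colonized in the same way with Candida albicans SC5314 (3 libraries), and colon labelled control (3 libraries), all taken at day 30. The labels say neither what the controls received nor that libraries come from different mice, and the p-values cover the spread between libraries only, some of which may be technical. The libraries held 16195376 to 19761098 counts.

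S100 proteins are small calcium sensors of the EF-hand type found in vertebrates. Most form dimers that open a binding face when calcium is bound and then dock onto annexins, cytoskeletal proteins or, outside the cell, receptors such as RAGE (gene Ager). In the gut, several are made by the epithelium, and S100g, also called calbindin-D9k, carries calcium across absorptive cells under control of vitamin D.

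Of the 9 genes, 8 had enough counts to be tested. S100a6, S100a10, S100a1, S100a11 and S100a16 were among the most abundant transcripts of the colon, while S100a4 had 2 counts in all 8 libraries together. In C. tropicalis colon, S100a14, S100a16, S100a6 and S100a10 stood above every C. albicans and every control library. Of all tested genes, 23.4% stood above every C. albicans library and 16.1% above every control library. S100a14 had a log2 difference of 1.39 ± 0.26 from control (SE, n = 2 against 3). None of the 8 genes passed the adjusted threshold of 0.05 (edgeR, adjusted over all 16107 tested genes) in any of the 3 comparisons. Over all tested genes that threshold called 0.031% for C. tropicalis against control, 0% for C. tropicalis against C. albicans and 0.0435% for C. albicans against control. In the comparison of the 2 species, 3744 genes, 23.2%, had an unadjusted p under 0.05 in edgeR and DESeq2 called 1737. Markers of smooth muscle had their lowest summed levels in the C. tropicalis libraries.

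Except for S100g on the X chromosome, the genes lie in a cluster on chromosome 3 (mouse build mm10), chr3:90511034-93564643, which holds 121 annotated genes, 16 of them tested. S100a1 (chr3:90511034-90514392, minus strand) and S100a13 (chr3:90514435-90524581, plus strand) start back to back. The 42 bases between their annotated starts are shown because the levels of this pair are compared further on. S100a16 (chr3:90537254-90543151, plus strand) is shown because, with S100a14 (chr3:90526856-90528837, plus strand), it is one of the genes on which the results turn; RefSeq (GRCm38.p6) gives it a start at 90537254 and another at 90541146. The 250 bases before each start are printed 5′ to 3′ on the plus strand, with capitals for matches to the motifs searched.
S100a1 and S100a13, chr3:90514393-90514434: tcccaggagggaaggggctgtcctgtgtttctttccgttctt
S100a16, chr3:90537004-90537253: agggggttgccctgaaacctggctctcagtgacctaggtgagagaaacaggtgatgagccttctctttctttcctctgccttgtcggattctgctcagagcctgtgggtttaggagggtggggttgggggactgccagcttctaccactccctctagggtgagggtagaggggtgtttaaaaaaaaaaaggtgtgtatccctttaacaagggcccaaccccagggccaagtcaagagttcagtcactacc
S100a16, chr3:90540896-90541145: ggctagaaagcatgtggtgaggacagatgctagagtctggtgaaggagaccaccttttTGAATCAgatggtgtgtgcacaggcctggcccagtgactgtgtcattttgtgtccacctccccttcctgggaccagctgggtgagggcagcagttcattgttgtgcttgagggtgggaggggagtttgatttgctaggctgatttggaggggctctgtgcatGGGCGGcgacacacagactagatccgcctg

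The motifs searched on both strands, none overlapping another in these windows, were the TATA box TATAAA, the GC box GGGCGG, the AP-1 site TGANTCA and the E-box CACGTG. Among the 32851 promoter stretches of this length in the table, 12.4%, 32.7%, 6.75% and 6.02% held them. The stretch before the second S100a16 start held 1 AP-1 match, beginning 192 bases before the start, and 1 GC box, beginning 30 bases before it. The stretch before the first S100a16 start held none of the 4, and neither did those of S100a1, S100a13, S100a6 and S100g. S100a11 had 3 GC boxes, 2 AP-1 matches and 1 E-box, and S100a4 had a TATA box beginning 31 bases before its start. These matches describe letters, and binding was not measured. S100a14 and S100a10 have no stretch in the table.

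Compared per length of exon, as RPKM (counts scaled to library size and exon length), S100a6 led in all 3 groups. It averaged 504 ± 86.6 RPKM in C. tropicalis colon (SD, n = 2), 353 ± 52.1 RPKM in C. albicans colon and 395 ± 11.7 RPKM in control colon (SD, n = 3 each). S100a6 encodes calcyclin, a protein linked to proliferating cells and to the ubiquitin ligase adaptor Cacybp. In control colon it ranked 111th of the 16107 tested genes by this measure.

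S100a10 came second, at 324 ± 7.85 RPKM in C. tropicalis colon, 238 ± 43.3 RPKM in C. albicans colon and 243 ± 23.1 RPKM in control colon. Its protein, p11, does not need calcium and holds annexin A2 at the cell membrane. S100a1, best known from heart muscle, had 220 ± 22.4, 193 ± 11.2 and 225 ± 32.3 RPKM in C. tropicalis, C. albicans and control colon. The ranges of S100a10 and S100a1 overlapped in C. albicans and control colon and not in C. tropicalis colon.

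Below them, the order differed by group. In control colon, S100a11 (153 ± 26.4 RPKM) and S100a16 (133 ± 32.7 RPKM) had overlapping ranges, and in C. albicans colon S100a11 (155 ± 14.5 RPKM) was above S100a16 (117 ± 5.03 RPKM). In C. tropicalis colon S100a16 came next after S100a10, at 233 ± 5.37 RPKM, in a range that overlapped that of S100a1. S100a14 was above S100a13 in C. tropicalis colon, with 82.7 ± 3.26 RPKM for S100a14 and 63.3 ± 9.43 RPKM for S100a13. In C. albicans colon S100a14 was below S100a13, at 24.3 ± 2.02 and 61.4 ± 7.69 RPKM, and likewise in control colon, at 31.5 ± 11.7 and 56.8 ± 8.43 RPKM. With the longest transcript as the length, S100a16 passed S100a11 in C. albicans colon (167 against 155 RPKM) and control colon (191 against 153 RPKM), and the levels of S100a6 and S100a10 were above 1.5 times those given here in each group. S100g was the lowest of the tested genes in each group, at 0 to 16.8 RPKM in the control libraries. S100a4 is not ranked, for the reason given further on.

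**Figure D1:**
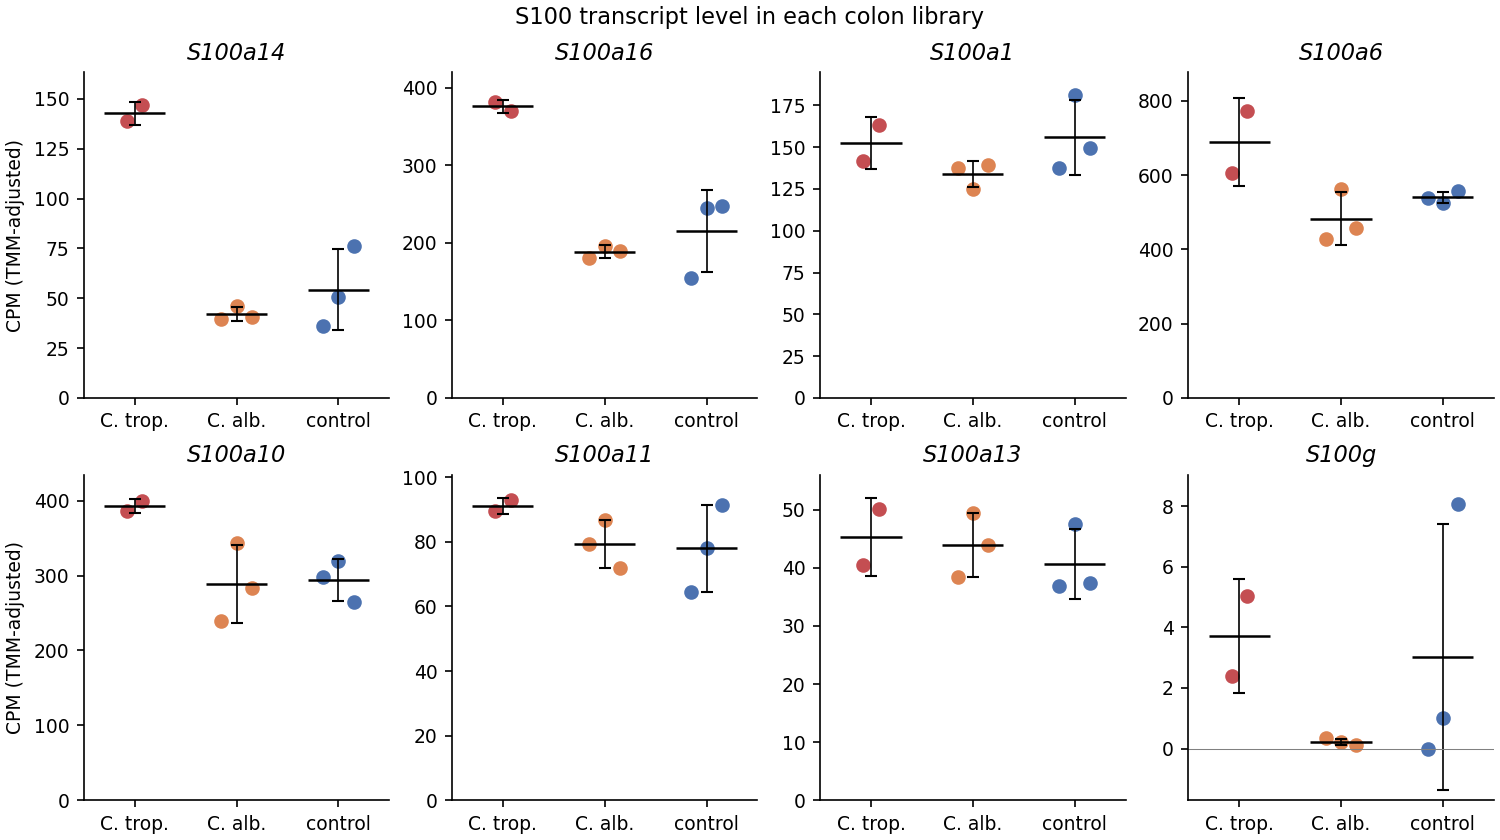
Level of each of the 8 tested S100 genes in counts-per-million (CPM, TMM-adjusted library sizes) in the 2 C. tropicalis, 3 C. albicans and 3 control colon libraries; points are libraries, horizontal lines are group means and error bars are SD. S100a14, S100a16, S100a6 and S100a10 are higher in both C. tropicalis libraries than in the other 6, and the control libraries of S100g run from 0 to 8.06 CPM.

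S100a14 (ENSMUSG00000042306) encodes a protein of epithelial cells that can signal through RAGE in human cells. It had 139 and 147 CPM in the C. tropicalis libraries, against 39.4, 46.0 and 40.7 CPM in C. albicans libraries 1 to 3 and 36.2, 50.6 and 76.2 CPM in control libraries 1 to 3. The C. tropicalis libraries were the highest of the 8, and control 3 was the highest of the rest. The log2 fold change was 1.39 ± 0.26 (95% confidence interval 0.81 to 1.97) for C. tropicalis against control, with an adjusted p of 0.129 in edgeR's quasi-likelihood test. For C. tropicalis against C. albicans it was 1.76 ± 0.26, with an edgeR adjusted p of 0.0646. C. albicans and control colon overlapped, at a log2 fold change of -0.37 ± 0.23 and an edgeR adjusted p of 0.451; without control 3 this was -0.05, without control 1 it was -0.59, and with the epithelial markers described below in the fit it was 0.03. Both C. tropicalis contrasts share the 2 C. tropicalis libraries, and the 2 contrasts against control share the controls.

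S100a16 (ENSMUSG00000074457), the next S100 gene along the chromosome, encodes a widely made protein that pairs with S100A14 in human cells. It had 382 and 370 CPM in the C. tropicalis libraries, against 180, 197 and 189 CPM in the C. albicans libraries and 155, 245 and 247 CPM in the control libraries. Again both C. tropicalis libraries were above the other 6, while control 1 was the lowest of all. The log2 fold change was 0.80 ± 0.20 (0.35 to 1.25) for C. tropicalis against control, with an edgeR adjusted p of 0.184. Against C. albicans it was 0.99 ± 0.20 (0.54 to 1.45), with an edgeR adjusted p of 0.0646.

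With DESeq2 in place of edgeR, S100a14 passed the threshold in both C. tropicalis comparisons (adjusted p = 0.000226 against control and 4.53e-07 against C. albicans), and so did S100a16 (adjusted p = 0.0155 and 0.000439). DESeq2 called 393 and 1737 genes in these 2 comparisons, where edgeR called 5 and 0. Without control 3, S100a14 passed in edgeR against control, at a log2 fold change of 1.72 ± 0.18 and an adjusted p of 0.0101. Against C. albicans, both genes also passed in edgeR without control 1, without control 3 or without C. albicans 1. With 1 library left out, the calls over all genes moved too, as given at the end. The passes are therefore not read as particular to these genes. The fold changes of both genes were positive under each of the 18 alternatives in both C. tropicalis comparisons.

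**Figure D2:**
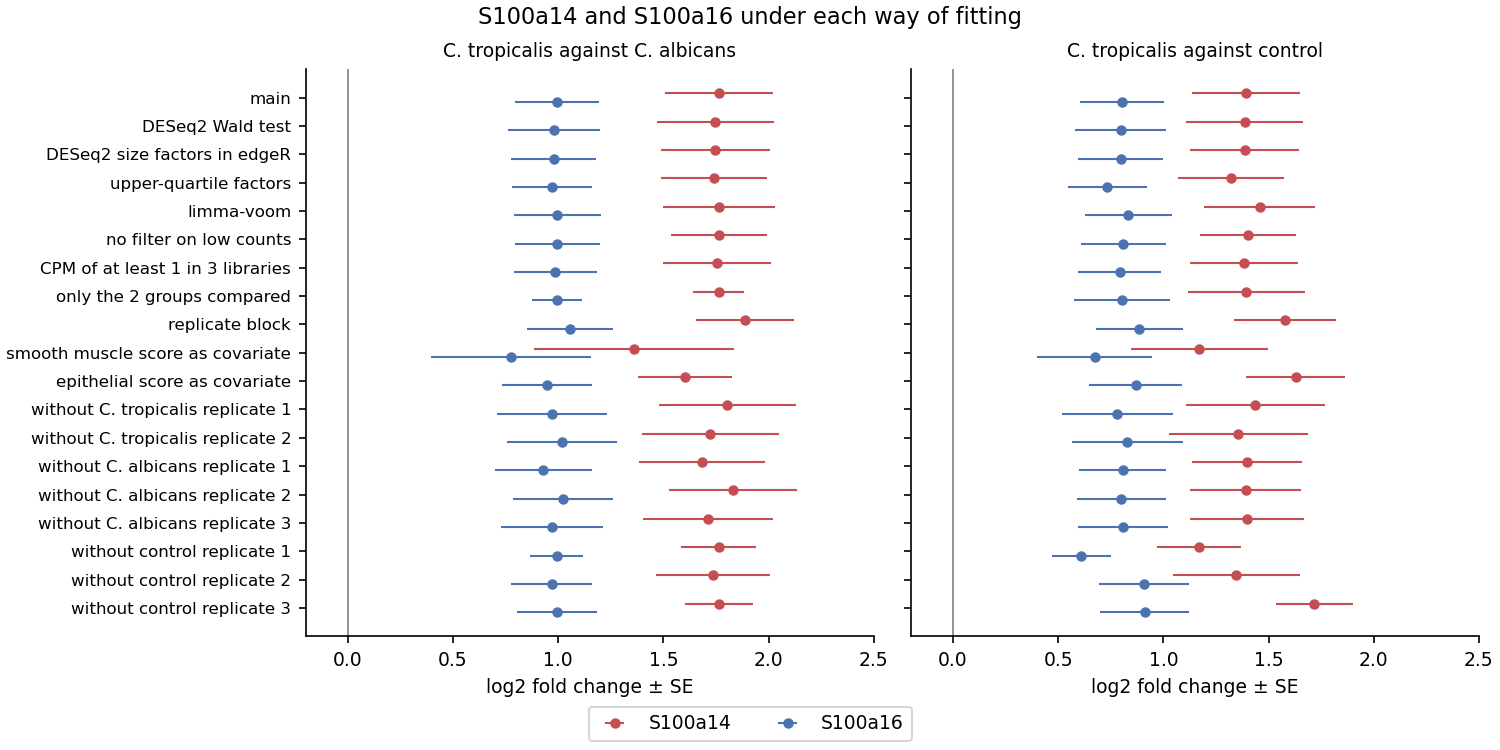
Log2 fold change ± SE of S100a14 and S100a16 for C. tropicalis against C. albicans (left) and against control (right) under the reported fit (main) and each of 18 alternatives. All points lie above 0; the smallest for S100a14 is 1.17 and the smallest for S100a16 is 0.61, both against control.

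The pair did not differ by the same amount. The ratio of S100a14 to S100a16 in RPKM, which does not depend on library scaling, was 0.340 and 0.371 in the C. tropicalis libraries, 0.205, 0.219 and 0.201 in the C. albicans libraries and 0.219, 0.193 and 0.289 in the control libraries. Both C. tropicalis libraries were above the other 6. By the correlation of log2 CPM over the 8 libraries, which includes the differences between groups, S100a16 was second among 10848 genes in likeness to S100a14 (Pearson r = 0.97). Kat8 ranked above it (r = 0.98) and Wdr3 next (r = 0.97). The genes most like S100a16 were Vhl, Nabp2 and Ippk (r = 0.99, 0.98 and 0.98).

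Marker genes of the main cell types are given beside these values, because in a whole-tissue library fewer cells of a type and less RNA per cell cannot be told apart. All 8 epithelial markers (Epcam, Cdh1, keratins and others) were well detected, with summed levels of 16855 to 19264 CPM in C. tropicalis colon, 15483 to 18550 CPM in C. albicans colon and 13254 to 16268 CPM in control colon. Both C. tropicalis sums were above the 3 control sums and within the C. albicans range or above it. Against control, 5 of the 8 markers had a positive fold change in C. tropicalis colon, with a median of 0.05 on the log2 scale, and 4 of 8 against C. albicans, with a median of -0.01; none passed the adjusted threshold. Krt19 and Krt8, keratins of simple epithelium, were above every control library in C. tropicalis colon, as were 16.1% of all tested genes. Their log2 fold changes were 0.46 ± 0.17 and 0.40 ± 0.19 (edgeR adjusted p = 0.286 and 0.344). The keratins Krt18 and Krt20 had -0.01 ± 0.20 and -0.12 ± 0.45, and Epcam, the epithelial adhesion molecule, had -0.03 ± 0.16. Against C. albicans, Krt18 had -0.50 ± 0.21 and was below every library. The 10 smooth muscle markers summed to 4052 and 5287 CPM in C. tropicalis colon, 10232 to 29692 CPM in C. albicans colon and 7219 to 13751 CPM in control colon. All 10 had a negative fold change in both C. tropicalis comparisons, with medians of -1.05 against control and -1.88 against C. albicans on the log2 scale, and none passed the adjusted threshold. Within the controls, control 3 had the least smooth muscle signal, 7219 CPM, and the most S100a14. Control 1 had the most smooth muscle signal of the controls, 13751 CPM, and the least S100a14. The C. albicans libraries went the other way. C. albicans 2 had the most of both, 29692 CPM and 46.0 CPM of S100a14, and C. albicans 1 the least, 10232 and 39.4 CPM. Control 3 also had the lowest epithelial sum, 13254 CPM. All 4 tested adipocyte markers had a negative fold change in both C. tropicalis comparisons, and none passed. Their medians were -2.86 against control and -2.65 against C. albicans on the log2 scale. In C. tropicalis colon the 5 adipocyte markers summed to 11.4 and 29.8 CPM. The sums were 39.7 to 101 CPM in C. albicans and 29.2 to 104 CPM in control colon. The 6 B cell markers summed to 55.7 and 79.4, 10.3 to 54.7 and 15.4 to 222 CPM in these groups.

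When the mean log2 CPM of the smooth muscle markers was added to the fit, the log2 fold change of S100a14 was 1.17 ± 0.33 for C. tropicalis against control and 1.36 ± 0.47 against C. albicans, with edgeR adjusted p of 0.349 and 0.787. That of S100a16 was 0.67 ± 0.27 and 0.77 ± 0.38. That of S100a13, described further on, was 0.40 ± 0.21 and 0.45 ± 0.29, and neither gene passed. The smooth muscle scores of the C. tropicalis libraries, -1.34 and -0.92, lay below all others, which ran from -0.53 to 1.47. As these ranges do not overlap, this fit cannot separate the C. tropicalis group from the score. The same limit holds for the other genes given with this covariate below. With an epithelial score as the covariate, S100a14 had 1.63 ± 0.24 and 1.60 ± 0.22, with edgeR adjusted p of 0.0343 and 0.0411. In that fit 218 and 174 genes passed in all. This score, a mean of log2 CPM, orders the groups otherwise than the sums above. It averaged 0.01 in C. tropicalis, 0.13 in C. albicans and -0.14 in control colon, where control 3 had -0.40. Squamous markers, which a sample reaching the anus would hold, were mostly near 0: of 6, only Krt14 was tested, at 4.74 and 3.57 CPM in C. tropicalis colon, 1.01, 0.997 and 1.95 CPM in C. albicans colon and 0.970, 0.893 and 1.40 CPM in control colon. The part of cell content in the S100a14 and S100a16 values was not tested.

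S100a6 had 605 and 773 CPM in C. tropicalis colon, against 428, 563 and 456 CPM in C. albicans colon and 540, 524 and 556 CPM in control colon. Both C. tropicalis libraries were above the rest, though apart from each other. Its log2 fold change was 0.35 ± 0.17 for C. tropicalis against control, with an edgeR adjusted p of 0.358, and 0.51 ± 0.17 against C. albicans, with an edgeR adjusted p of 0.122. Without C. tropicalis 2 these values were 0.17 and 0.33. With the smooth muscle markers in the fit they were 0.57 ± 0.22 and 0.88 ± 0.30 (edgeR adjusted p = 0.448 and 0.787). DESeq2 gave S100a6 an adjusted p of 0.0496 in the comparison with C. albicans. Cacybp, the calcyclin-binding protein, had 49.9 and 53.9 CPM in C. tropicalis colon, against 34.2, 45.1 and 48.1 CPM in C. albicans colon and 25.6, 30.1 and 22.8 CPM in control colon. Both Candida groups were above control for Cacybp, with log2 fold changes of 0.99 ± 0.18 for C. tropicalis and 0.70 ± 0.16 for C. albicans against control, which share the controls, and edgeR adjusted p of 0.120 and 0.161.

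S100a10 had 386 and 399 CPM in C. tropicalis colon, against 239, 344 and 284 CPM in C. albicans colon and 298, 320 and 264 CPM in control colon. Both C. tropicalis libraries were again above the others. Its log2 fold change was 0.42 ± 0.17 against control (edgeR adjusted p = 0.310) and 0.44 ± 0.17 against C. albicans (edgeR adjusted p = 0.174). With the smooth muscle markers in the fit these were 0.76 ± 0.19 and 1.01 ± 0.26 (edgeR adjusted p = 0.299 and 0.787), and without C. albicans 1 the comparison with C. albicans gave 0.29. Anxa2, which encodes its partner annexin A2, had 890 and 867 CPM in C. tropicalis colon, against 550, 669 and 645 CPM in C. albicans colon and 606, 677 and 541 CPM in control colon. Its log2 fold change was 0.53 ± 0.16 against control (edgeR adjusted p = 0.228) and 0.50 ± 0.16 against C. albicans (edgeR adjusted p = 0.108). The ratio of S100a10 to Anxa2 in RPKM stayed between 1.34 and 1.58 over the 8 libraries, with means of 1.38 ± 0.06 in C. tropicalis, 1.42 ± 0.14 in C. albicans and 1.49 ± 0.03 in control colon. The C. albicans range held those of control and part of that of C. tropicalis, while both C. tropicalis libraries were below the 3 controls.

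Further products work with the S100A10 and annexin A2 complex. Ahnak, a very large scaffold protein bound by it, had 857 and 712 CPM in C. tropicalis colon, against 521, 503 and 533 CPM in C. albicans colon and 462, 476 and 533 CPM in control colon. The C. tropicalis libraries did not overlap either group, at log2 fold changes of 0.68 ± 0.15 against control and 0.60 ± 0.15 against C. albicans (edgeR adjusted p = 0.160 and 0.0694). Plat, tissue plasminogen activator, whose action the complex promotes at the cell surface, went the other way: 3.99 and 5.32 CPM in C. tropicalis colon, against 11.6, 22.5 and 15.9 CPM in C. albicans colon and 22.7, 20.6 and 10.8 CPM in control colon. Its log2 fold change was -1.95 ± 0.39 against control (edgeR adjusted p = 0.137), and control 3, low in smooth muscle markers, was the lowest control.

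S100a11, a partner of annexin A1 in epithelial cells, had 89.5 and 93.0 CPM in C. tropicalis colon, against 79.2, 86.7 and 71.9 CPM in C. albicans colon and 64.5, 78.2 and 91.4 CPM in control colon. It overlapped control and lay just above C. albicans. Its log2 fold changes were 0.23 ± 0.16 for C. tropicalis against control and 0.20 ± 0.16 against C. albicans, with edgeR adjusted p of 0.524 and 0.509. Anxa1 was further apart: 280 and 271 CPM in C. tropicalis colon, against 149, 172 and 158 CPM in C. albicans colon and 157, 164 and 158 CPM in control colon. The log2 fold change of Anxa1 was 0.79 ± 0.12 against control and 0.78 ± 0.12 against C. albicans (edgeR adjusted p = 0.104 and 0.0646).

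Of the 12 annexin genes, 11 were tested and none passed the threshold in any comparison. Anxa8 had the smallest p among them: 70.2 and 62.2 CPM in C. tropicalis colon, against 22.9, 29.4 and 32.1 CPM in C. albicans colon and 30.2, 23.1 and 28.7 CPM in control colon. Its C. tropicalis libraries were above the other 6, with log2 fold changes of 1.27 ± 0.18 against control and 1.24 ± 0.18 against C. albicans (edgeR adjusted p = 0.0862 and 0.0646). In C. albicans against control, Anxa6 and Anxa11 had the smallest p, at log2 fold changes of 0.32 ± 0.17 and 0.24 ± 0.14 (edgeR adjusted p = 0.390 and 0.422). The median annexin log2 fold change was 0.17 for C. tropicalis against control, 0.24 for C. tropicalis against C. albicans and 0.01 for C. albicans against control. The ratio of S100a6 to S100a11 in RPKM ran from 2.02 to 3.13, and the C. tropicalis and control ranges overlapped.

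S100a1 had 141 and 163 CPM in C. tropicalis colon, against 138, 125 and 140 CPM in C. albicans colon and 138, 181 and 149 CPM in control colon. C. tropicalis and control overlapped, at a log2 difference of -0.03 ± 0.16 with a 95% confidence interval of -0.38 to 0.32. S100a13, which takes part in the release of FGF1 and interleukin 1 alpha from cells, had 40.5 and 50.0 CPM in C. tropicalis colon, against 38.4, 49.4 and 43.9 CPM in C. albicans colon and 36.9, 47.6 and 37.3 CPM in control colon. All 3 groups overlapped for S100a13, and the intervals of its 3 differences lay within -0.34 and 0.55 on the log2 scale. The back-to-back genes kept a ratio of S100a1 to S100a13 of 3.60 and 3.36 in C. tropicalis colon, 3.69, 2.61 and 3.28 in C. albicans colon and 3.84, 3.92 and 4.12 in control colon, in RPKM. Both Candida groups were below control in every library for this ratio, which was computed after the other values had been seen.

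**Figure D3:**
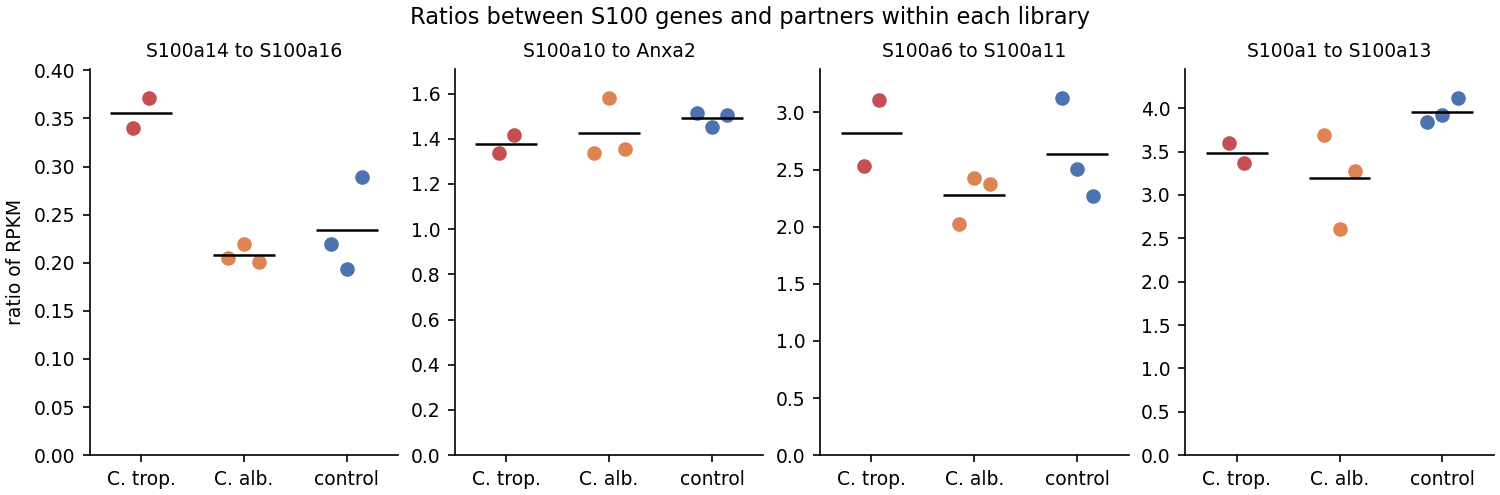
Ratio of RPKM of 2 genes within each library for the 2 C. tropicalis, 3 C. albicans and 3 control colon libraries; points are libraries and lines are group means. S100a14 to S100a16 is above 0.33 in both C. tropicalis libraries and below 0.29 in the other 6, while S100a10 to Anxa2 runs from 1.34 to 1.58 over all 8.

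S100g (ENSMUSG00000040808, chrX:162961992-162964599, minus strand) was the most variable gene of the family here. It had 42 and 89 counts in C. tropicalis colon, against 6, 4 and 2 counts in C. albicans colon and 0, 17 and 150 counts in control colon. As CPM these were 2.40 and 5.04 in C. tropicalis colon, 0.337, 0.210 and 0.122 in C. albicans colon, and 0, 1.01 and 8.06 in control colon. The 0 in control 1 allows up to 3 counts, or 0.171 CPM. The C. tropicalis libraries were both above the C. albicans libraries, and the controls spanned both groups. S100g lies inside an intron of Ctps2 on the other strand with no shared exon, and the library kit does not keep the strand.

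The log2 fold change of S100g was 4.01 ± 1.45 for C. tropicalis against C. albicans (0.73 to 7.28), with an edgeR adjusted p of 0.145. It was 0.29 ± 1.21 for C. tropicalis against control and -3.72 ± 1.38 for C. albicans against control, with edgeR adjusted p of 0.924 and 0.275. Without control 3, these were 2.87 for C. tropicalis against control and -1.13 for C. albicans against control. With the epithelial markers in the fit they were 2.70 ± 0.89 and -0.46 ± 1.11, and with limma-voom 2.46 and -1.43. When the smooth muscle markers were added to the fit, the direction turned in both C. tropicalis comparisons, to -1.67 ± 1.28 against control and -0.22 ± 2.08 against C. albicans, and C. albicans against control was -1.45 ± 1.49. The C. tropicalis and C. albicans comparison passed in edgeR when only these 2 groups were fitted (adjusted p = 0.0197), without control 1 (0.0441) and without control 3 (0.0488). Each of these settings leaves out control libraries, where S100g ran from 0 to 150 counts. With only the 2 groups fitted, the value was 4.01 ± 0.53, and 858 genes passed in all, where the main fit called 0. The calls over all genes also moved with 1 library left out, as given at the end.

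Markers of small intestine or caecum, where S100g is abundant, differed among themselves, and 3 of the 4 tested had a positive fold change for C. tropicalis against C. albicans, with a median of 1.75 on the log2 scale. Of the 7 listed, 4 were tested and none passed. Fabp6 had 4.62 to 10.6 CPM in C. tropicalis colon, 1.52 to 1.85 CPM in C. albicans colon and 2.40 to 3.63 CPM in control colon. Rbp2 had 68.0 to 77.2, 21.6 to 37.9 and 48.4 to 70.1 CPM, and Apoa1 0.114 to 7.02, 0.112 to 1.46 and 0.161 to 2.98 CPM, in C. tropicalis, C. albicans and control colon. Fabp2 averaged 11.3 ± 5.28 CPM in C. tropicalis colon, 120.4 ± 84.8 CPM in C. albicans colon and 83.1 ± 93.0 CPM in control colon (SD, n = 2, 3 and 3). Apoa4, Lct and Sis were below 1 CPM in each library. The 7 markers summed to 80.9 and 110.3 CPM in C. tropicalis colon, 90.5 to 238 CPM in C. albicans colon and 70.9 to 240.0 CPM in control colon, and their part in the S100g values was not tested.

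Trpv6 encodes the channel through which calcium enters absorptive cells before calbindin binds it. It had 101 and 127 counts in C. tropicalis colon, against 6, 5 and 1 counts in C. albicans colon and 6, 8 and 47 counts in control colon. As with S100g, control 3 was the highest control, and both C. tropicalis libraries were above the C. albicans libraries; unlike S100g, both were above control 3. The log2 fold change of Trpv6 was 2.52 ± 0.73 for C. tropicalis against control, 4.81 ± 0.85 for C. tropicalis against C. albicans and -2.30 ± 0.84 for C. albicans against control, with edgeR adjusted p of 0.220, 0.0646 and 0.270. Vdr, the vitamin D receptor, had 467 ± 72.3 CPM in C. tropicalis colon, 381 ± 77.2 CPM in C. albicans colon and 390 ± 34.0 CPM in control colon, and its groups overlapped. Of the 9 vitamin D and calcium transport genes listed, 5 were tested and none passed the threshold. Slc8a1, a sodium and calcium exchanger, had log2 fold changes of -2.08 ± 0.78 for C. tropicalis against control and -2.35 ± 0.79 against C. albicans, and Rxra, the partner of the vitamin D receptor, 0.29 ± 0.12 for C. albicans against control (edgeR adjusted p = 0.280, 0.122 and 0.316). The part of the smooth muscle markers, low in the same C. tropicalis libraries, in the Slc8a1 and Trpv6 values was not tested.

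**Figure D4:**
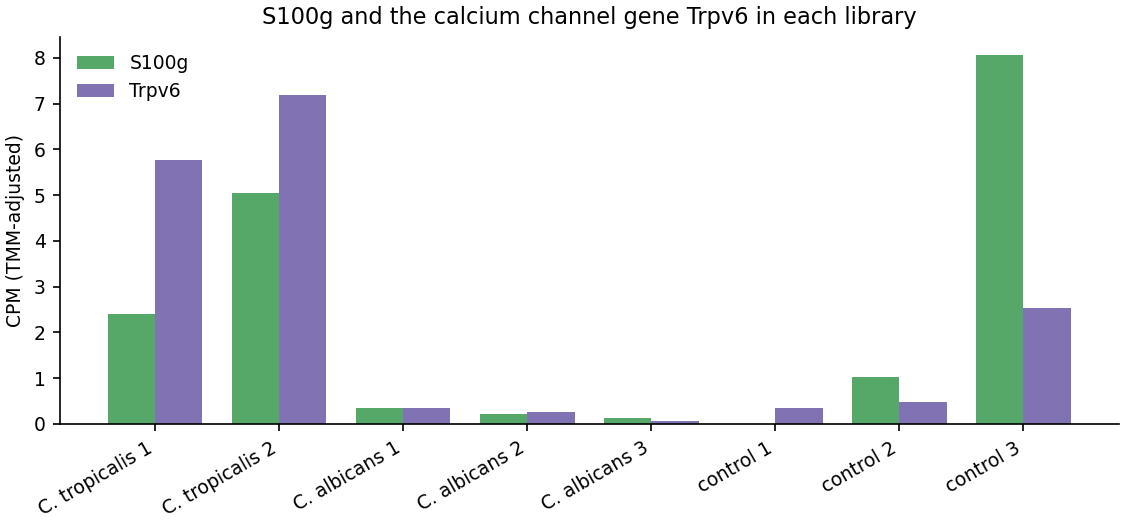
Level of S100g and Trpv6 in CPM in each of the 8 colon libraries; each bar is 1 library, and control 1 has no S100g count. Both genes are high in the C. tropicalis libraries and in control 3, and below 0.4 CPM in the C. albicans libraries.

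S100a4 (ENSMUSG00000001020, chr3:90603771-90606045, plus strand) encodes a protein of fibroblasts and macrophages that binds non-muscle myosin. It had 2 counts in C. albicans 1 and none in the other 7 libraries. Cells that make it were represented: the 8 fibroblast markers summed to 1117 and 1301 CPM in C. tropicalis colon, 1586 to 2498 CPM in C. albicans colon and 1387 to 1741 CPM in control colon. The 7 macrophage markers summed to 157 and 240 CPM in C. tropicalis colon, 142 to 210 CPM in C. albicans colon and 111 to 218 CPM in control colon. In the annotation, another gene of the same strand, Gm42674, lies over S100a4 and shares 302 of the 498 exon bases of its coding transcript, and Gm42674 had 0 counts. How reads in shared exons were treated in the counting is not given in the sources used here, and its part in the S100a4 value was not tested. The value is therefore given as listed, and no level or absence of S100a4 is read from it.

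The 8 tested genes can also be counted by whether their libraries overlapped. In C. tropicalis colon, S100a14, S100a16, S100a6 and S100a10 were above every control library, 4 of 8, where 16.1% of all tested genes were. Against C. albicans, 7 of 8 were above every library, all but S100a13, where 23.4% of all tested genes were. None of the 8 was below every library of the other group in these 2 comparisons, where 16.4% of all tested genes were below control and 22.4% below C. albicans. In C. albicans against control, 0 of 8 were above and 0 below every control library, where 9.82% and 9.55% of all tested genes were. As the genes were chosen with these data known, nothing is read from these shares.

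The median log2 fold change of the 8 genes was 0.32 for C. tropicalis against control (7 positive), 0.48 for C. tropicalis against C. albicans (8 positive) and -0.18 for C. albicans against control (2 positive). The medians over all 16107 tested genes were -0.02, 0.04 and -0.02. Their counts made up 0.174% and 0.200% of the C. tropicalis libraries, 0.114% to 0.136% of the C. albicans libraries and 0.137% to 0.151% of the control libraries.

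**Figure D5:**
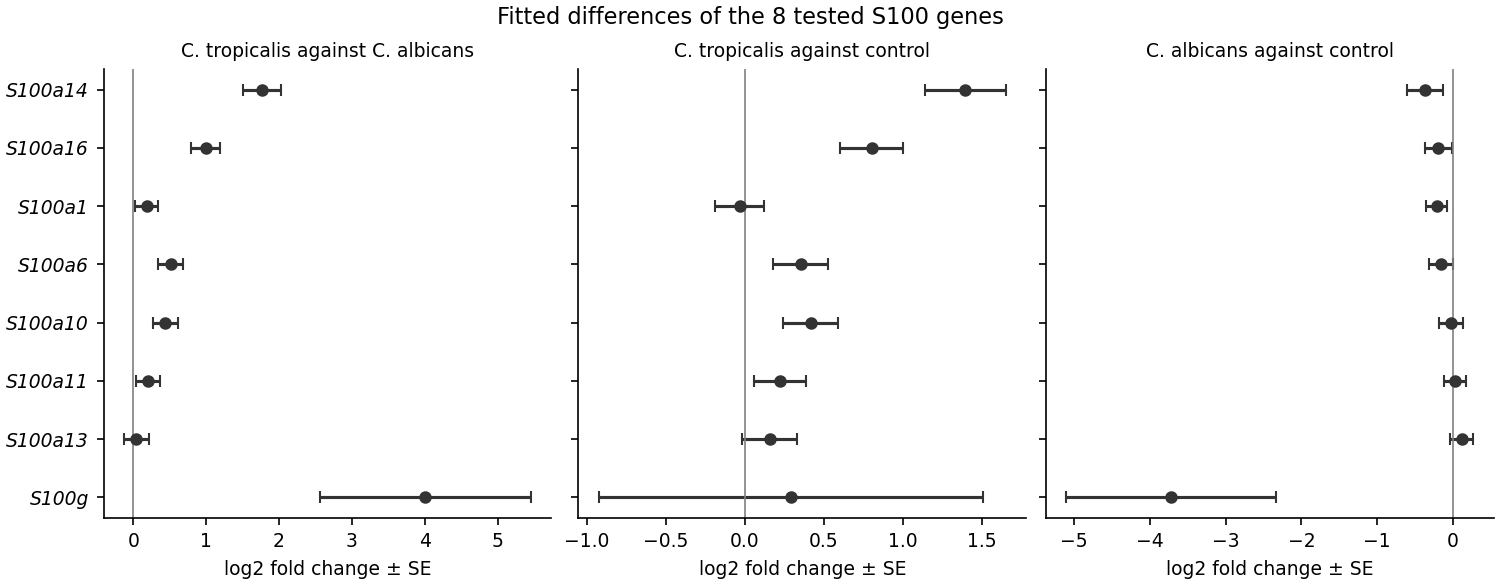
Log2 fold change ± SE of the 8 tested S100 genes in each of the 3 comparisons; the line marks 0, and each panel has its own scale. S100a14 and S100a16 have the highest values for C. tropicalis against control, 1.39 and 0.80, and S100g has the widest error in each panel.

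Going along the chromosome, the log2 fold changes for C. tropicalis against control were -0.03 for S100a1, 0.16 for S100a13, 1.39 for S100a14, 0.80 for S100a16 and 0.35 for S100a6, and then 0.23 for S100a11 and 0.42 for S100a10 at the far end. Between them lie genes of the skin barrier, most of them too low to test. Of the 8 tested genes there that are not S100 genes, 5 had a positive fold change for C. tropicalis against control and 4 for C. tropicalis against C. albicans, and 0 passed the edgeR threshold in either comparison. Tchh, which encodes trichohyalin of the hair follicle, had 0.54 ± 0.31 against control and 1.43 ± 0.31 against C. albicans (edgeR adjusted p = 0.423 and 0.0669), and Lor, which encodes loricrin of the cornified envelope, 0.92 ± 0.49 and 0.74 ± 0.49 (edgeR adjusted p = 0.396 and 0.410). Sprr2a1, of a family of small proline-rich proteins with near-identical copies whose reads may be split, had -1.76 ± 0.61 and -1.73 ± 0.61 (edgeR adjusted p = 0.265 and 0.138). Sprr2a2 had -0.59 ± 0.16 and -0.23 ± 0.16 (edgeR adjusted p = 0.213 and 0.448). Sprr2a3, the most abundant of the 8 at a mean of 513 CPM, went the other way. Its values were 0.14 ± 0.30 and 0.94 ± 0.29 (edgeR adjusted p = 0.847 and 0.106).

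Of the other S100 genes, the neutrophil pair S100a8 and S100a9, which form calprotectin, had 6 and 4 counts over the 8 libraries. The further neutrophil markers Mpo, Elane and Cxcr2 had 5, 1 and 2 counts. Ly6g, the only neutrophil marker tested, had 225 and 234 CPM in C. tropicalis colon and did not pass in any comparison. It had 21.6 to 156 CPM in C. albicans colon and 28.8 to 172 CPM in control colon. S100a2 and S100a3 had 6 counts each, S100a5 had 0 and S100z had 15, and S100a7l2 was not found by its symbol. S100a7a, with 81 counts, and the glial gene S100b, with 359, were tested and did not pass. The log2 fold change of S100b was -0.52 ± 0.44 for C. tropicalis against control and -1.03 ± 0.44 against C. albicans (edgeR adjusted p = 0.575 and 0.200). The 7 enteric neuron and glia markers summed to 31.2 and 57.1 CPM in C. tropicalis colon, 74.1 to 185 CPM in C. albicans colon and 68.7 to 90.2 CPM in control colon; their part in the S100b value was not tested.

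Receptors reported for secreted S100 proteins were all tested, 7 of 7, and none passed the threshold in any comparison. Alcam, a cell adhesion receptor, had 23.8 and 29.2 CPM in C. tropicalis colon, against 16.01, 14.90 and 12.49 CPM in C. albicans colon and 18.8, 19.2 and 25.7 CPM in control colon. The C. albicans libraries were the lowest, with a log2 fold change of -0.55 ± 0.17 against control (edgeR adjusted p = 0.246). Sdc1, the epithelial syndecan, had 269 and 246 CPM in C. tropicalis colon, against 302, 405 and 423 CPM in C. albicans colon and 236, 293 and 231 CPM in control colon. Sdc1 was above control in all 3 C. albicans libraries, at 0.57 ± 0.17 (edgeR adjusted p = 0.231). Mcam, an adhesion molecule of vessel walls and smooth muscle, had log2 fold changes of -0.95 ± 0.30 for C. tropicalis against control and -1.40 ± 0.30 against C. albicans (edgeR adjusted p = 0.242 and 0.0658). The 6 endothelial markers summed to 130 and 142 CPM in C. tropicalis colon, 184 to 256 CPM in C. albicans colon and 148 to 182 CPM in control colon. Cd36, a scavenger receptor, had -1.02 ± 0.49 for C. tropicalis against control (edgeR adjusted p = 0.352). Ager, the gene of RAGE, had log2 fold changes of 0.28 ± 0.39 for C. tropicalis and 0.13 ± 0.35 for C. albicans against control.

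Of the 14 listed partner genes of these proteins, 12 were tested and none passed the threshold. Plgrkt, a plasminogen receptor, had a log2 fold change of -0.50 ± 0.14 for C. albicans against control and -0.37 ± 0.16 for C. tropicalis against control (edgeR adjusted p = 0.224 and 0.315). For S100a4's partner Myh9 the log2 fold change was 0.39 ± 0.20 for C. tropicalis against control. For the S100a13 cargo gene Fgf1 it was -0.16 ± 0.19, and for Syt1, which acts with it in release, -1.07 ± 0.40 (edgeR adjusted p = 0.278). Syt1 is also a neuronal gene, and the neuron and glia markers are given above.

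The genes most like the other members by correlation over the 8 libraries had r between 0.94 and 0.99. They were Hmox2, AA467197 and Rbm17 for S100a1, Commd3, Cct2 and Npepps for S100a6, and Cndp2, Rnf121 and Akr1c12 for S100a10. For S100a11 they were Ube2d1, Ppt2 and Flot2, for S100a13 Polr2i, Agpat2 and Mrpl28, and for S100g Tyro3, Ssbp3 and Rgs19. No other S100 gene was among these.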

How the data were processed

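Whole-colon RNA was sequenced with an unstranded NEBNext Ultra library kit, per the labels' protocols. The authors deposited raw read counts per Ensembl gene, as whole numbers without scaling. Named in the submitters' processing notes are the build mm10 and DESeq 1.18.0, HTSeq (written as version 6.1) and TopHat2 2.0.12. No annotation release or counting mode is given in the sources used here. Symbols, positions and exon lengths came from GENCODE M21 (GRCm38, the same build), where 52489 of 52636 identifiers were found, and promoter sequences from RefSeq, with 7 of the 9 genes matched.

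Counts were fitted with edgeR 4.0.16 in R 4.3.3 (TMM, filterByExpr, quasi-likelihood F-test, one fit of 8 libraries, Benjamini-Hochberg over the 16107 tested genes of each contrast, threshold 0.05). The SE is the log2 fold change divided by the square root of F. CPM use TMM-adjusted library sizes, and RPKM add the union exon length. A count of 0 allows 3 counts; floors cover counting error only. No 2 libraries of a group were as alike as sampling noise. The fit was tested on simulated data. Alternatives used DESeq2 1.42.0, limma-voom 3.58.1, other scalings and filters, covariates, the replicate number as a block and leaving out each library; a lone remaining C. tropicalis library was taken to vary as the libraries of the other groups do. Figures were drawn with matplotlib 3.10.9.

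The members, the lists and the tests were chosen with earlier results of these data known, so p-values of members are descriptions. Named besides the members are, from the lists of other S100 genes, annexins, partners, receptors, and vitamin D and calcium genes, the 2 with the smallest p in a contrast, and for each member the 3 protein-coding genes with mean CPM of at least 5 and the highest correlation of log2 CPM (prior count 2). Ager, Vdr, Anxa2, Myh9, Fgf1, Syt1, S100b, the cell markers and the skin barrier genes were named outside this rule, with their values known.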

Additional observations from a re-analysis of the deposited data

How the results depend on the processing

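No S100 gene passed in C. albicans against control under any alternative. For C. tropicalis against control the count of S100 genes called was 0, against 2 with DESeq2, 1 with no filter, 1 with the epithelial covariate and 0 to 1 when 1 library was left out (1 without control 3). For C. tropicalis against C. albicans it was 0, against 3 with DESeq2, 2 with no filter, 3 with only these 2 groups fitted, 1 with the epithelial covariate and 0 to 3 when 1 library was left out (2 without C. albicans 1, 3 without control 1 or control 3). Over all genes the number of calls moved too. For C. albicans against control, 7 became 461 with DESeq2, 119 with no filter, 11 with the smooth muscle covariate, 3 with the epithelial covariate and 0 to 254 with 1 library left out. For C. tropicalis against control, 5 became 393 with DESeq2, 71 with no filter, 0 with only 2 groups or the smooth muscle covariate, 218 with the epithelial covariate and 0 to 192 with 1 library left out. For C. tropicalis against C. albicans, 0 became 1737, 1127 with no filter, 858 with only 2 groups, 174 with the epithelial covariate and 0 to 1315 with 1 library left out. The causes were not tested.

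As no S100 gene passed in the main fit, none could stop passing. Of 431 recomputed fold changes of the S100 genes, 391 kept direction and stayed short of the threshold, 22 newly passed and 18 turned direction. Those that turned were S100a11 (-0.024, upper-quartile factors), S100a13 (-0.045, smooth muscle covariate) and S100a14 (0.027, epithelial covariate) for C. albicans against control, and S100g with the smooth muscle covariate (-1.67 for C. tropicalis against control, -0.22 against C. albicans). With 1 library left out, ranges that cross 0 were -0.17 to 0.13 for S100a10 and -0.10 to 0.15 for S100a11 (C. albicans against control), -0.11 to 0.19 for S100a13 (C. tropicalis against C. albicans), and, for C. tropicalis against control, -0.14 to 0.085 for S100a1, -6.4e-05 to 0.30 for S100a13 and -0.34 to 2.87 for S100g. S100g was filtered out when only C. albicans and control were fitted. With the replicate number as a block, 0 S100 genes and 0 genes in all passed in each comparison. S100a14 had 1.58 for C. tropicalis against control in that fit. Same-numbered libraries of different groups correlated at -0.39 to 0.16, and differently numbered ones at -0.29 to 0.36. With 2 or 3 libraries in a group, these values cannot show whether the numbers pair the samples. At these depths, counts as low as the 2 to 6 of S100g in C. albicans colon carry a large counting error. The spread of S100g within the controls, 0 to 150 counts, goes beyond counting error. No level of S100a4 is read, for the reason given above.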
